A study of Mus musculus with 17 samples.

Results

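Keratins of simple epithelia, the epithelial ETS factor Elf3 and the adhesion molecule Epcam were followed in whole mouse uteri after estradiol (E2), in mice lacking Egr1 (knockout, KO) and in wild-type (WT) mice. The set holds 7 genes chosen by name, Krt7, Krt8, Krt18, Krt19, Krt23, Elf3 and Epcam, out of 14737 genes tested. Each gene is shown by its brightest probe, the one with the highest mean over all arrays among the probes that the platform annotation gives to its symbol. All 7 passed the filter on dim probes (a value over the array median for 2 or more of the 17 arrays), 6 of them on every array and Epcam on 9 of 17. KO uteri were taken 3, 6 and 24 h after E2 and at 0 h, with 2 arrays in each group, and WT uteri likewise, with 3 arrays at 3 h and 2 in each other group. E2 is shared by the 3, 6 and 24 h groups of both genotypes, and the comparisons of 3, 6 and 24 h with 0 h within a genotype share the same 0 h arrays. The E2 dose, the age and strain of the mice, how the Egr1 allele was disrupted, any ovariectomy, any vehicle given at 0 h and any pooling of animals are not given by the sources used here.

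Keratins are intermediate filament proteins that assemble as pairs of a type I and a type II chain. In simple epithelia, such as those lining the uterine lumen and glands, the type II chains Krt8 and Krt7 pair with the type I chains Krt18 and Krt19, and the filaments are anchored at desmosomes. Elf3 is an ETS-domain transcription factor restricted mainly to epithelia, and Epcam is a membrane protein of epithelial cells that mediates adhesion between them and associates with claudins. E2 drives the uterine epithelium to proliferate and to differentiate, and Egr1 is a zinc-finger transcription factor of the immediate-early class. A change in whole uterus can come from fewer cells of a type or from less RNA per cell, and these cannot be told apart in bulk RNA.

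The genes of the filament set lie in the keratin clusters of chromosomes 15 and 11, and Elf3 and Epcam lie elsewhere. In RefSeq on GRCm38.p6 Krt7 spans chr15:101412403-101427806, Krt8 chr15:101996711-102004342, Krt18 chr15:102028216-102032026, Krt19 chr11:100140810-100145926 and Krt23 chr11:99477973-99493120, while Elf3 spans chr1:135253574-135258472 and Epcam chr17:87635979-87651127. Promoters of 6 of the 7 genes (all but Krt19) matched the RefSeq table. The 5 stretches below are the 150 bases just upstream of the annotated start, 5′ to 3′ on the gene's strand, for the genes whose time courses are set side by side later: Krt7 and Elf3, which were higher at 3, 6 and 24 h in both genotypes, Krt8 and Krt18, the classical filament partners, and Krt23, which was lower in KO at 0 h and at 3 h. Capitals mark a match, on either strand, to the GC box core GGGCGG, the ETS core GGAAG or the estrogen response half-site GGTCA. The coordinates are chr15:101412253-101412402 (plus strand) for Krt7, chr1:135258473-135258622 (minus) for Elf3, chr15:102004343-102004492 (minus) for Krt8, chr15:102028066-102028215 (plus) for Krt18 and chr11:99493121-99493270 (minus) for Krt23.
Krt7: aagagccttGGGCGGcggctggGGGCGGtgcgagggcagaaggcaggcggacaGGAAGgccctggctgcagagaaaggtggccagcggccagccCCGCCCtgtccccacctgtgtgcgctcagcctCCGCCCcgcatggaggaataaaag
Elf3: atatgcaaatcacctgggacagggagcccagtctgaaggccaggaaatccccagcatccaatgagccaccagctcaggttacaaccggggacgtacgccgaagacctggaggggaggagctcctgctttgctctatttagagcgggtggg
Krt8: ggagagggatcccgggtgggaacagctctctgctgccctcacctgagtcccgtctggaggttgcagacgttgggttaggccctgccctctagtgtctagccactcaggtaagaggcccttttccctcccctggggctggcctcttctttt
Krt18: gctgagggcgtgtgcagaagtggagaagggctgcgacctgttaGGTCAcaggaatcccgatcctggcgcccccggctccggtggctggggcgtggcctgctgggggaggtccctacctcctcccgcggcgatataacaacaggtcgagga
Krt23: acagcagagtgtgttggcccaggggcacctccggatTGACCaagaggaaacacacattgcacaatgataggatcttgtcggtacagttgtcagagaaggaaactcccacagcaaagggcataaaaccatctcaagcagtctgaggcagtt

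Over the whole 250 bases upstream of the start, Krt7 held 4 GC boxes, with first bases 141, 128, 56 and 24 bases before the start, and 2 ETS cores, 165 and 97 bases before it. Krt8 held 1 ETS core 204 bases and 1 estrogen response half-site 224 bases before the start. A half-site was also found once each in Krt18 (107 bases), Krt23 (114 bases) and Epcam (91 bases), and Epcam held 1 GC box (58 bases). None of the motifs searched was found in the window of Elf3. The EGR motif GCGNGGGCG, the AP-1 motif TGANTCA and TATAAA had 0 matches in the 6 windows. The same windows of all 32851 RefSeq promoters held the ETS core in 64.1%, the half-site in 35.2%, the GC box in 32.7%, TATAAA in 12.4%, AP-1 in 6.7% and the EGR motif in 4.7%. A match is a run of letters and no measure of binding, and the lack of one concerns these letters in this window.

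Values are log2 signals that the authors had normalized between arrays, so each change is measured against the rest of the array, and the levels of different probes are not compared. Arrays of a group correlated at 0.990 to 0.997 and no pair was identical. Smooth muscle and uterine genes were bright (Myh11 at the 98.7th percentile of all probes, Esr1 at the 92.7th, Pgr at the 88.5th and Hoxa11 at the 76.4th), as was the oviduct gene Ovgp1 at the 80.0th. Of 3 oviduct and ovary markers measured, 0 were higher and 1 lower at 24 h than at 0 h in KO, and 0 were called in WT. Among all genes 22.5% were higher and 23.1% lower in KO, and 18.9% and 19.0% in WT. Whether oviduct tissue was present was not tested. The Egr1 probe read 13.55 ± 0.11 in KO and 12.37 ± 0.19 in WT uteri at 0 h (SD, n = 2 each). At 3, 6 and 24 h its means were 14.64, 14.65 and 13.39 in KO and 14.79, 13.91 and 11.74 in WT. The labels do not say which exons the mutation removes, so this signal is no check of the labels, and KO and WT stand for arrays so labelled. Among the 0 h arrays, WT 0 h replicate 1 stood apart: it correlated on average at 0.974 with the 24 h arrays, against 0.950 to 0.952 for the other 0 h arrays. KO 0 h replicate 2 had a mean macrophage marker level of 1.04 (log2, centred on the mean of all arrays), against 0.22 in KO 0 h replicate 1. Results at 0 h are therefore also given without single 0 h arrays. The labels do not state whether samples come from different animals, so the p-values rest on a spread between samples that may be technical. Every adjusted p comes from limma, adjusted by Benjamini and Hochberg's method for the 14737 genes, and a gene is called below 0.05.

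Krt7, Krt8, Krt19 and Elf3 rose by 24 h after E2 in both genotypes. Krt7 gained most, being 4.77-fold higher at 24 h than at 0 h in KO uteri and 4.59-fold in WT uteri, and Elf3 was 3.23-fold and 3.66-fold higher in KO and WT. Krt18, the usual partner of Krt8, was called lower at 24 h in KO and higher in WT, and both calls rested on single arrays. In KO uteri 2 of the 7 genes were higher and 3 lower at 3 h, where 19.0% and 21.4% of all genes were higher and lower. At 6 h in KO, 4 were higher and 1 lower, against 21.8% and 23.0% of all genes. By 24 h in KO, 4 were higher and 1 lower, against 22.5% and 23.1% of all genes. In WT uteri 3 were higher and 3 lower at 3 h, against 22.2% and 24.5% of all genes. At 6 h in WT, 2 were higher and 1 lower, against 21.9% and 22.1%. By 24 h in WT, 6 were higher and 1 lower, against 18.9% and 19.0%. The median change of the 7 genes at 24 h was 1.25 in KO and 1.01 in WT, on the log2 scale, with a median over all genes of -0.00 in KO and 0.00 in WT.

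Most of the 7 genes still changed after 6 h. Between 24 h and 6 h, 4 of the 7 genes were higher and 1 lower in KO, where 19.7% and 18.6% of all genes were higher and lower. In WT, 6 were higher and 1 lower from 6 h on, where 19.3% and 19.0% of all genes were higher and lower. Krt7, Krt8, Krt19 and Epcam were higher and Krt23 lower at 24 h than at 6 h in both genotypes, and Krt18 and Elf3 were called higher in WT only. Elf3 differed by 0.25 between 24 h and 6 h in KO (adjusted p = 3.52e-01) and by 1.13 in WT (3.15e-04), and Krt18 by 0.02 in KO (9.11e-01) and 0.62 in WT (1.16e-04). The difference between the genotypes in this late step was not tested. Without KO 6 h replicate 1, Krt7 (0.44, adjusted p = 5.19e-02) and Epcam (0.15, 6.83e-02) were no longer called in KO for this step, which left 3 of 7. The Epcam call in KO was also lost without KO 6 h replicate 2 (1.40e-01), KO 24 h replicate 1 (1.58e-01) or KO 24 h replicate 2 (8.06e-02).

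**Figure D1:**
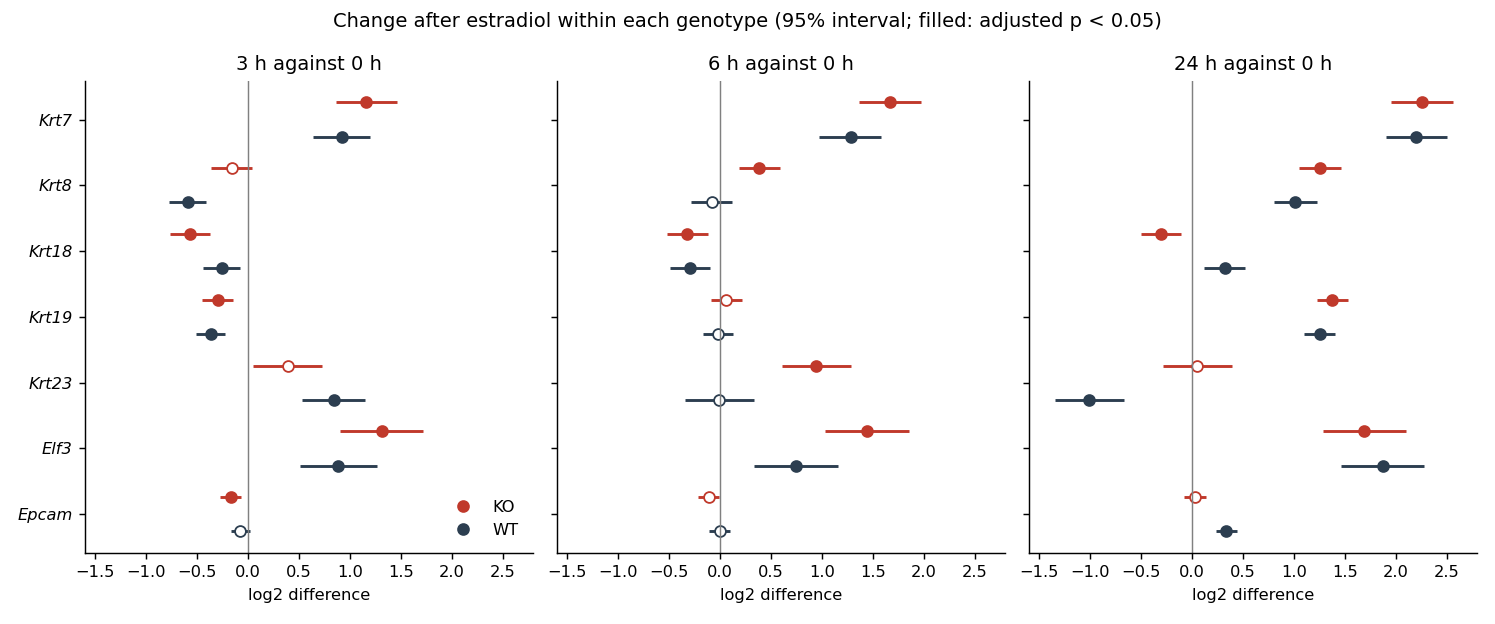
Change of each gene at 3, 6 and 24 h against 0 h on the log2 scale (x axis) in KO (red, upper) and WT (dark blue, lower), with bars for the 95% interval of the limma fit and filled points for an adjusted p under 0.05. Krt7 and Elf3 lie right of 0 at every time, Krt8 and Krt19 do so at 24 h, and at 24 h Krt18 lies left of 0 in KO and right of it in WT.

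Limma called 0 to 2 of the 7 genes between KO and WT uteri at each time, and 1 to 3 had an unadjusted p under 0.05. With so few arrays, a gene that was not called may still differ. At 0 h, 2 were lower in KO and 0 higher, where 2.19% and 2.24% of all genes were lower and higher. At 3 h, 1 was lower and 0 higher, against 2.07% and 2.16% of all genes. At 6 h limma called 0 of 7 in either direction, against 0.360% lower and 0.271% higher of all genes, and 2 of 7 had an unadjusted p under 0.05. At 24 h, 1 was lower and 0 higher, against 4.27% and 4.08% of all genes. The change since 0 h, taken as the KO change minus the WT change, differed at 24 h for 3 genes, 1 more positive and 2 more negative in KO, where 4.12% and 3.15% of all genes were so called. That difference was called for 0 of 7 genes by limma at 3 h (0.604% of all genes more positive and 0.489% more negative) and for 0 of 7 at 6 h (0.197% and 0.204%), with 2 and 3 genes at an unadjusted p under 0.05. A joint test of the 3 times called 2 of 7, Krt18 and Krt23, against 6.83% of all genes. These counts leaned on single arrays. The count of 3 for the 24 h change was 0 without WT 24 h replicate 1 and 1 without KO 24 h replicate 2, and KO against WT at 24 h had 0 without either of these. Without WT 0 h replicate 2, which leaves the array that stood apart as the only WT 0 h array, 2 of 7 differed in their 3 h change (Krt8 by 0.59 and Elf3 by 0.86), 4 of 7 in their 6 h change (Krt7, Krt8, Krt23 and Elf3) and 6 of 7 in the joint test.

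**Figure D2:**
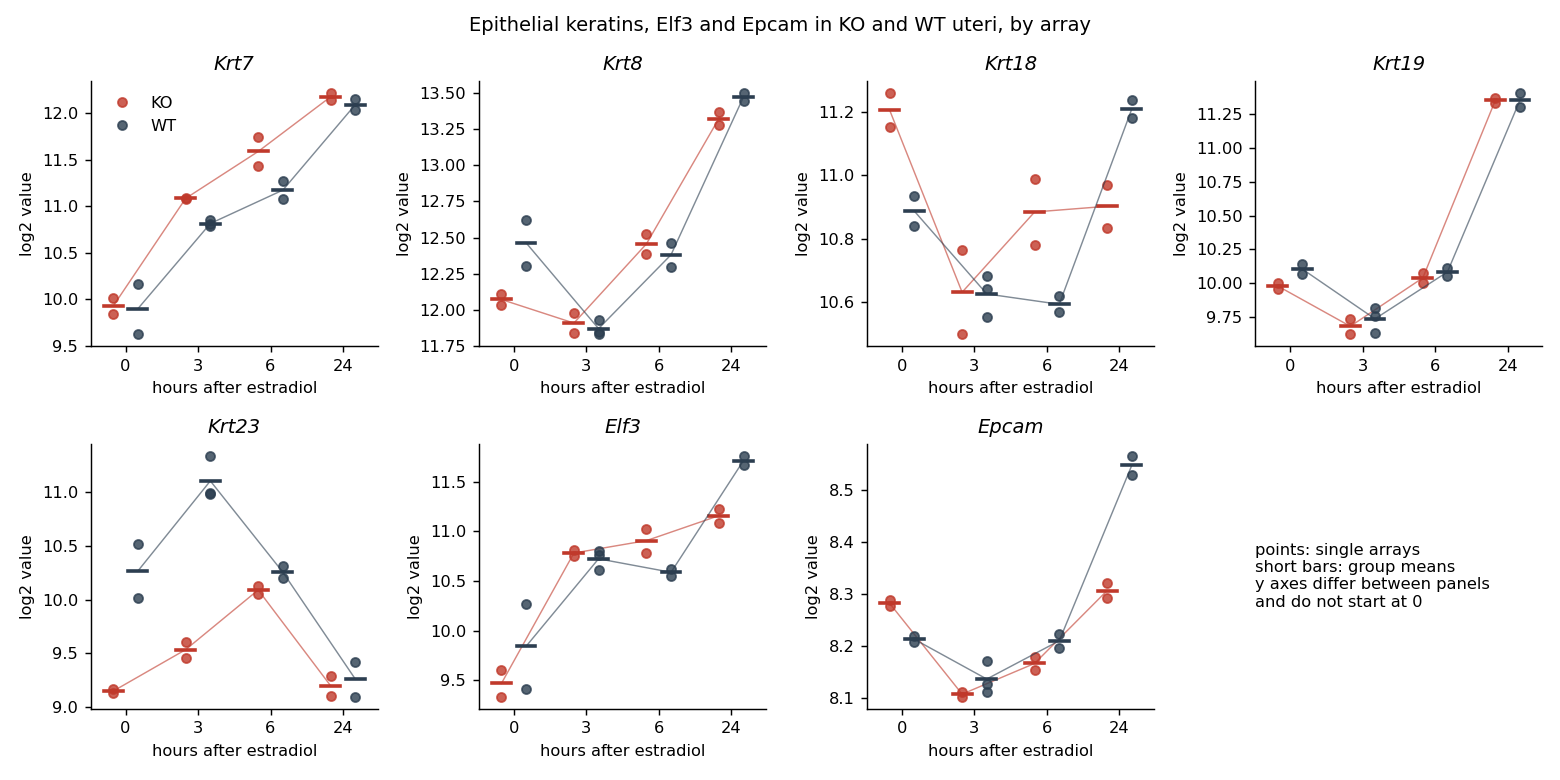
Log2 value of each gene on every array (points) by hours after E2 (x axis), with KO in red left of WT in dark blue, and short bars for group means; each panel has its own y axis, none of which starts at 0. Krt7, Krt8, Krt19 and Elf3 are highest at 24 h in both genotypes, and the Krt23 arrays of KO lie below those of WT at 0 and 3 h.

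Krt7 (probe ILMN_2961152) is a type II keratin of simple and glandular epithelia. In KO uteri it read 9.84 and 10.02 at 0 h, 11.09 and 11.08 at 3 h, 11.44 and 11.74 at 6 h and 12.14 and 12.22 at 24 h. WT uteri gave 10.17 and 9.62 at 0 h, 10.79, 10.85 and 10.81 at 3 h, 11.28 and 11.07 at 6 h and 12.16 and 12.04 at 24 h. Every later group lay above its 0 h group without overlap, and the 2 arrays of WT 0 h were the most spread of any group. The change at 3 h was 1.16 in KO (SE 0.14, adjusted p = 1.68e-05) and 0.92 in WT (SE 0.13, adjusted p = 3.97e-05). At 6 h it was 1.67 in KO (5.42e-07) and 1.28 in WT (5.79e-06). At 24 h it was 2.26 in KO (2.45e-07) and 2.20 in WT (3.79e-07). Group means ran, high to low, in the order KO and WT 24 h, which overlapped, then KO 6 h, then WT 6 h and KO 3 h, which overlapped, then WT 3 h, and last KO and WT 0 h, which overlapped. KO minus WT was 0.27 at 3 h (95% interval -0.01 to 0.55) and 0.42 at 6 h (0.11 to 0.72), without overlap of arrays at either time but with adjusted p-values of 2.80e-01 and 2.38e-01. Left without WT 0 h replicate 1, the array that stood apart, the 24 h change of Krt7 in WT was 2.47, and without WT 0 h replicate 2 it was 1.93.

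Krt8 (ILMN_1221157), the type II keratin found in nearly all simple epithelia, fell at 3 h in WT and was up by 24 h in both genotypes. KO arrays read 12.03 and 12.11 at 0 h, 11.84 and 11.98 at 3 h, 12.53 and 12.38 at 6 h and 13.37 and 13.28 at 24 h. For WT arrays Krt8 was 12.62 and 12.30 at 0 h, 11.93, 11.83 and 11.85 at 3 h, 12.46 and 12.30 at 6 h and 13.50 and 13.45 at 24 h. All 3 WT arrays at 3 h lay below both at 0 h, and the 24 h arrays of both genotypes lay above all others. At 3 h Krt8 differed from 0 h by -0.16 in KO (adjusted p = 2.09e-01) and fell by 0.60 in WT (6.29e-05). At 6 h the change was 0.39 in KO (4.31e-03) and -0.08 in WT (5.50e-01). At 24 h it was 1.25 in KO (4.89e-07) and 1.01 in WT (5.56e-06), or 2.39-fold and 2.02-fold. The WT and KO 24 h groups led, then WT 0 h, KO 6 h and WT 6 h, which overlapped in turn, then KO 0 h, and last KO 3 h and WT 3 h, which overlapped. At 0 h Krt8 was lower in KO by 0.39 (95% interval -0.60 to -0.19, adjusted p = 3.65e-02), and without WT 0 h replicate 1 this was -0.23 with an adjusted p of 2.85e-01. The call was also lost without KO 0 h replicate 1 (-0.36, 1.81e-01) and without KO 0 h replicate 2 (-0.43, 1.24e-01), and its adjusted p lay at the threshold or up to 5.48e-02 without any of 6 arrays of other groups, which change only the shared spread: both 24 h arrays of each genotype and WT 3 h replicates 1 and 2. A second Krt8 probe, ILMN_1229241, lay above the array median on 0 of 17 arrays, with values of 7.86 to 8.07, and gives no further check.

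Krt18 (ILMN_2711267), the type I partner of Krt8, was lower at 3 and 6 h than at 0 h in both genotypes, and at 24 h lower in KO and higher in WT. Its KO values were 11.26 and 11.15 at 0 h, 10.50 and 10.76 at 3 h, 10.78 and 10.99 at 6 h and 10.97 and 10.83 at 24 h. Its WT values were 10.84 and 10.93 at 0 h, 10.64, 10.68 and 10.55 at 3 h, 10.62 and 10.57 at 6 h and 11.24 and 11.18 at 24 h. Both KO 0 h arrays were above both WT 0 h arrays, and at 24 h the order was turned, with both KO arrays below both WT arrays. Krt18 fell at 3 h by 0.58 in KO (adjusted p = 1.74e-04) and by 0.26 in WT (1.95e-02), and at 6 h by 0.32 in KO (1.03e-02) and by 0.29 in WT (1.80e-02). At 24 h it was -0.30 in KO (95% interval -0.50 to -0.11, adjusted p = 1.45e-02) and 0.32 in WT (0.12 to 0.52, 1.31e-02). The KO change minus the WT change at 24 h was -0.63 (SE 0.13, adjusted p = 1.41e-02), and the joint test over 3, 6 and 24 h gave an adjusted p of 2.71e-02. Neither end of that difference was called on its own, with KO minus WT at 0.32 at 0 h (6.96e-02) and -0.31 at 24 h (5.81e-02). The 24 h end was called with only the 24 h arrays (1.01e-02), with array weights (3.05e-03) and without any 1 of the KO 3 h (2.74e-02 each) or KO 6 h arrays (4.01e-02 each), and the 0 h end without any 1 of those arrays (3.57e-02 and 4.71e-02). The calls of Krt18 at 24 h, at 6 h in both genotypes and at 3 h in WT rested on single arrays. The difference in the 24 h change had an adjusted p of 6.68e-02 without KO 24 h replicate 2 and 5.52e-02 without WT 24 h replicate 1. The 24 h change in KO had an adjusted p of 1.10e-01 without KO 0 h replicate 1 and 1.31e-01 without KO 24 h replicate 2. That in WT had 7.43e-02 without WT 0 h replicate 1 and 8.60e-02 without WT 24 h replicate 1. The KO fall at 6 h was lost without KO 0 h replicate 1 (-0.27, 8.53e-02) or KO 6 h replicate 1 (-0.22, 1.26e-01). The WT fall at 3 h was lost without WT 0 h replicate 2 (-0.22, 1.29e-01) or WT 3 h replicate 3 (-0.23, 6.81e-02), and that at 6 h without WT 0 h replicate 2 (-0.25, 1.05e-01), WT 6 h replicate 1 (-0.32, 5.03e-02) or WT 6 h replicate 2 (-0.27, 9.71e-02). The joint call was lost without any 1 of 7 arrays, with adjusted p-values of 5.22e-02 to 1.07e-01: KO 0 h replicate 1, both 6 h arrays of WT and both 24 h arrays of each genotype. WT 24 h and KO 0 h overlapped at the top of the order of means, KO 24 h, WT 0 h and KO 6 h overlapped in turn below them, and KO 3 h, WT 3 h and WT 6 h overlapped at the bottom.

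Krt19 (ILMN_2614462), the smallest type I keratin, was lower at 3 h and higher at 24 h than at 0 h in both genotypes. In KO uteri Krt19 was 9.96 and 10.00 at 0 h, 9.62 and 9.74 at 3 h, 10.08 and 10.00 at 6 h and 11.37 and 11.34 at 24 h. In WT uteri Krt19 was 10.14 and 10.07 at 0 h, 9.63, 9.76 and 9.82 at 3 h, 10.11 and 10.05 at 6 h and 11.41 and 11.30 at 24 h. At 3 h all arrays lay below the 0 h arrays of their genotype, and at 24 h every array stood above all arrays of earlier times. The gene fell at 3 h by 0.30 in KO (adjusted p = 3.38e-03) and by 0.37 in WT (2.61e-04). The 6 h change was 0.06 in KO (5.50e-01) and -0.02 in WT (8.61e-01). At 24 h Krt19 was 2.60-fold higher in KO (log2 1.38, adjusted p = 1.82e-07) and 2.38-fold higher in WT (1.25, 1.45e-07). KO minus WT at 24 h was -0.00 with a 95% interval of -0.15 to 0.15, and no difference between the genotypes was called at any time. At 0 h KO minus WT was -0.125 (95% interval -0.28 to 0.03, adjusted p = 3.83e-01), with both KO arrays below both WT arrays. The WT and KO 24 h groups overlapped, WT 0 h, WT 6 h and KO 6 h overlapped in turn below them, KO 0 h stood next without overlap, and WT 3 h and KO 3 h overlapped at the bottom.

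Krt23 (ILMN_2671165), a divergent type I keratin whose role is less well known, had the largest KO minus WT differences of the 7 genes, at 0 and 3 h. KO uteri gave 9.17 and 9.12 at 0 h, 9.61 and 9.46 at 3 h, 10.13 and 10.05 at 6 h and 9.29 and 9.10 at 24 h. The WT arrays for Krt23 were 10.52 and 10.01 at 0 h, 11.34, 10.98 and 11.00 at 3 h, 10.31 and 10.20 at 6 h and 9.09 and 9.42 at 24 h. The highest group mean was at 6 h in KO, at 10.09 ± 0.05 (SD, n = 2), and at 3 h in WT, at 11.11 ± 0.20 (n = 3). KO minus WT was -1.12 at 0 h (95% interval -1.46 to -0.78, adjusted p = 1.69e-03) and -1.58 at 3 h (-1.88 to -1.27, 1.86e-04), or 2.17-fold and 2.98-fold lower in KO. At 6 h it was -0.17 (-0.50 to 0.17, 7.47e-01) and at 24 h -0.06 (-0.40 to 0.27, 8.98e-01). Without WT 0 h replicate 1, which read highest of the 0 h arrays, the 0 h difference of Krt23 was -0.87 (1.32e-02). When only the arrays of the 2 groups were fitted, the 0 h difference had an adjusted p of 1.22e-01.

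Within a genotype, Krt23 was 0.39 higher at 3 h than at 0 h in KO (adjusted p = 6.49e-02) and 0.84 higher in WT (2.11e-04). At 6 h it was 0.94 higher in KO (1.76e-04) and differed by -0.01 in WT (9.70e-01). At 24 h it differed by 0.05 in KO (8.59e-01) and fell by 1.01 in WT (2.01e-04). The KO change minus the WT change of Krt23 was -0.45 at 3 h (3.66e-01), 0.95 at 6 h (9.53e-02) and 1.06 at 24 h (SE 0.22, adjusted p = 1.44e-02), with an adjusted p of 2.78e-03 over the 3 times jointly. KO minus WT being -0.06 at 24 h, this 24 h term is nearly the 0 h difference with its sign turned. The 24 h call of Krt23 was lost without KO 24 h replicate 1 (0.97, 5.72e-02), without WT 24 h replicate 1 (0.89, 6.36e-02), and when only the 0 h and 24 h arrays were fitted (5.12e-02). In the order of means WT 3 h led, WT 0 h and WT 6 h overlapped, KO 6 h and KO 3 h followed without overlap, and the WT 24 h, KO 24 h and KO 0 h groups overlapped at the bottom.

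**Figure D3:**
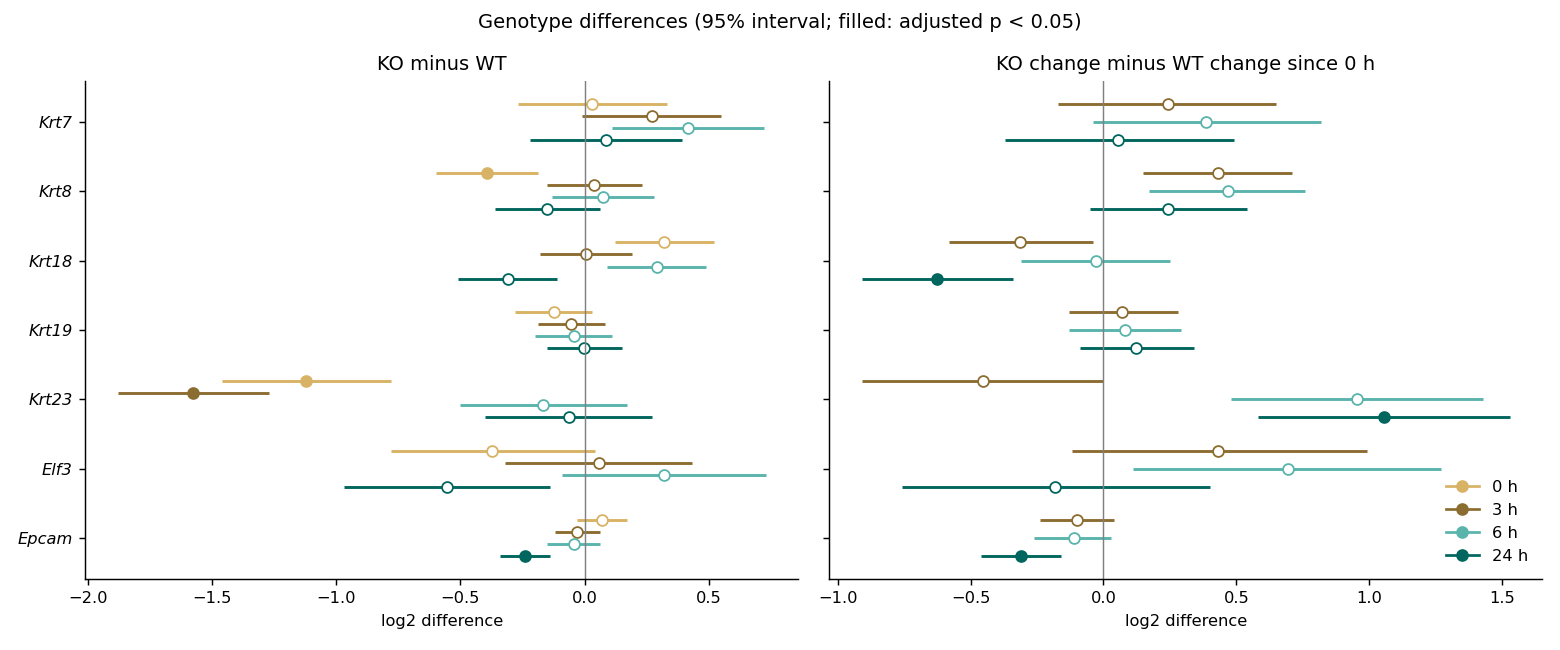
Left, KO minus WT at 0, 3, 6 and 24 h, and right, KO change minus WT change since 0 h at 3, 6 and 24 h, both on the log2 scale with 95% intervals and filled points for an adjusted p under 0.05. Krt23 is at -1.12 and -1.58 at 0 and 3 h on the left, and on the right the filled points are those of Krt18, Krt23 and Epcam at 24 h.

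Elf3 (ILMN_2850233), which in mouse is needed for maturation of the intestinal epithelium, was up at 3 h and stayed up. KO uteri had Elf3 values of 9.33 and 9.60 at 0 h, 10.75 and 10.81 at 3 h, 10.79 and 11.03 at 6 h and 11.23 and 11.09 at 24 h. WT uteri had Elf3 values of 10.27 and 9.42 at 0 h, 10.80, 10.76 and 10.61 at 3 h, 10.55 and 10.62 at 6 h and 11.76 and 11.67 at 24 h. All later arrays lay above the 0 h arrays of their genotype, and the WT 0 h pair spanned more (SD 0.60) than any other group. The 3 h change was 1.31 in KO (SE 0.19, adjusted p = 7.64e-05) and 0.88 in WT (SE 0.17, 7.48e-04). The 3 h change of Elf3 in WT was 1.31 without WT 0 h replicate 1 and 0.46 without replicate 2 (6.35e-03), and was called each time. The 6 h change was 1.44 in KO (2.47e-05) and 0.75 in WT (5.29e-03), and in WT 1.17 without WT 0 h replicate 1. The 24 h change was 1.69 in KO (6.79e-06) and 1.87 in WT (8.88e-06). Without WT 0 h replicate 2, the 6 h change of Elf3 in WT was 0.32 (5.75e-02) and was no longer called, nor was it when only the WT 6 h and 0 h arrays were fitted (6.06e-02). The 24 h change in WT was 2.30 without WT 0 h replicate 1 and 1.45 without replicate 2.

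At 24 h both KO arrays of Elf3 lay below both WT arrays, with KO minus WT at -0.56 (95% interval -0.97 to -0.14, adjusted p = 9.69e-02). This was not called in the fit over all 17 arrays, and was called when only the 24 h arrays were fitted (1.09e-03), with array weights (2.51e-03) and without either WT 0 h array (3.80e-03 each). A second probe, ILMN_2692072, gave -0.50 for the same comparison (SE 0.11, adjusted p = 1.22e-02 over all probes with 1 symbol), and the dimmest Elf3 probe, ILMN_2621659, gave -0.20 (SE 0.09, 3.26e-01). In that fit the brightest probe had an adjusted p of 1.20e-01. The 24 h change of the second probe was 1.07 in KO and 1.36 in WT, and that of the dimmest was 0.48 and 0.60 in KO and WT. The 3 probes therefore moved the same way at 24 h by different amounts. In the order of means WT 24 h and then KO 24 h stood above KO 6 h, KO 3 h, WT 3 h and WT 6 h, which overlapped in turn, and WT 0 h and KO 0 h overlapped at the bottom. At 0 h KO minus WT was -0.37 (3.27e-01), 0.05 without WT 0 h replicate 1 and -0.80 without replicate 2 (1.87e-03), so it rested on which WT array was kept.

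Epcam (ILMN_1240539) was dim, at the 55.1th percentile of all probes, and its differences were small. In KO uteri Epcam was 8.29 and 8.28 at 0 h, 8.11 and 8.10 at 3 h, 8.18 and 8.15 at 6 h and 8.32 and 8.29 at 24 h. In WT uteri Epcam was 8.21 and 8.22 at 0 h, 8.11, 8.17 and 8.13 at 3 h, 8.20 and 8.22 at 6 h and 8.57 and 8.53 at 24 h. Both WT 24 h arrays stood above all others, and the 3 h groups had the lowest means. Epcam fell at 3 h by 0.17 in KO (adjusted p = 9.16e-03) and differed by -0.08 in WT (1.77e-01). At 24 h it differed from 0 h by 0.03 in KO (95% interval -0.08 to 0.13, 7.50e-01) and was 0.33 higher in WT (0.23 to 0.44, 1.10e-04). KO minus WT at 24 h was -0.24 (-0.34 to -0.14, adjusted p = 7.65e-03), and the KO change minus the WT change was -0.31 (SE 0.07, 1.71e-02). Without WT 24 h replicate 1 these 2 values of Epcam were -0.22 (8.11e-02) and -0.29 (7.20e-02), and without KO 24 h replicate 2 they were -0.23 (7.24e-02) and -0.30 (7.13e-02). The 24 h difference in the change of Epcam was also not called without KO 0 h replicate 1 (5.10e-02), KO 0 h replicate 2 (5.70e-02) or WT 24 h replicate 2 (5.10e-02), and the 3 h fall in KO was lost without KO 0 h replicate 1 (-0.17, 5.47e-02). With the lowest value of the table subtracted before the log, KO minus WT at 24 h was -0.43, so the size depends on the unknown floor of the scale.

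Courses over the 8 group means were set side by side by the root mean square difference after each gene was centred on its own mean. Krt8 and Krt19 were close to each other (0.14), Krt8 being the 3rd nearest of all genes to Krt19. Krt7 and Elf3 were less close (0.30), and Elf3 ranked 7th from Krt7. Krt8 lay 0.49 from Krt18. Among all genes Krt8 ranked 13078th in nearness to Krt18, while Krt18 ranked 2208th in nearness to Krt8. The nearest of the 7 to Krt18 was Epcam (0.15, rank 252). The 3 nearest other genes were Gng12, Msmo1 and Bace2 for Krt7 (0.14 to 0.19), Erg28, Tmem88 and Ppp2r5c for Krt8 (0.11 to 0.13), Usp3, Inafm1 and Me1 for Krt18 (0.08 to 0.09), and Erg28, Gusb and Ppp2r5c for Krt19 (0.09 to 0.16). For Elf3 they were Acer3, H2ax and Gch1 (0.24 to 0.26) and for Epcam Zdhhc9, Sharpin and Cmas (0.03 to 0.04). The nearest genes to Krt23, Sez6l, Gm11346 and Arg2, were at 0.32 to 0.34. A flat or dim gene has small differences to many others, so these values describe the 8 means and are not compared between genes.

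Among the other keratins Krt12 gained most. Of 22 further type II keratins 10 were measured above the filter, and 1 rose at 24 h in each genotype. This was Krt84, a hair keratin, which was 0.46 higher in KO (adjusted p = 2.26e-04) and 0.90 higher in WT (3.19e-06), and 0.48 lower in KO than in WT at 24 h (2.43e-03). Of 24 further type I keratins 11 were measured, with 4 higher and 1 lower at 24 h in KO and 2 higher and 0 lower in WT. The counts of both types stand beside 22.5% higher and 23.1% lower of all genes in KO, and 18.9% and 19.0% in WT. Krt12, known from corneal epithelium, gained 2.04 in KO (6.79e-07) and 1.80 in WT (4.28e-06) and was 0.62 higher in KO than in WT at 24 h (3.54e-02). Krt13, Krt14 and Krt15, known from stratified epithelia, were 0.52, 0.66 and 0.45 higher at 24 h in KO, and of these Krt13 was called in WT too (0.26, 1.67e-02). The Krt14 arrays of KO at 24 h and 0 h overlapped. Krt17, a keratin of stressed and basal epithelium, was higher at 6 h by 0.66 in KO (5.83e-05) and 0.95 in WT (2.62e-06), and at 3 h it was 0.47 lower in KO than in WT (9.57e-03). Krt4 was 0.37 lower in KO at 3 h (6.43e-03).

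Other ETS factors gave mixed counts. At 24 h 3 of 18 measured were higher and 4 lower in KO, and 3 were higher and 2 lower in WT. Among all genes 22.5% were higher and 23.1% lower in KO, and 18.9% and 19.0% in WT. Elf4 and Ets2 rose at 3 h, Elf4 by 0.90 in KO and 0.84 in WT and Ets2 by 0.72 in KO and 0.86 in WT (adjusted p at most 4.98e-06). At 24 h Ets2 was 0.69 lower than at 0 h in KO (5.54e-06) and 0.63 lower in KO than in WT (2.92e-04). Elf1 was 0.45 lower in KO than in WT at 24 h (1.89e-03).

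Other epithelial markers, among them genes of tight junctions and polarity, were counted beside the keratins. Of 18 measured, 7 were higher and 4 lower at 24 h in KO, with a median change of 0.05, and 10 were higher and 2 lower in WT, with a median of 0.38. The shares of all genes were 22.5% higher and 23.1% lower in KO, and 18.9% and 19.0% in WT. Muc1, the mucin of the luminal surface, gained 1.88 in KO and 2.08 in WT, and Rab25, a vesicle regulator, gained 0.92 in KO and 1.03 in WT. Cldn3 and Cldn4, claudins of the tight junction, fell by 1.12 and 1.18 in KO at 24 h. Neither was called for KO against WT at that time, so these falls are not shown to be particular to KO. At 24 h 3 were lower in KO than in WT, namely Prom1 (-0.91), Cdh1 (-0.65), which encodes E-cadherin, and Marveld3 (-0.39), and Wnt7a, a Wnt ligand of luminal epithelium, was higher (0.46). In this comparison 4.27% of all genes were lower and 4.08% higher. The mean level of the list, centred on all arrays, was -0.01 to 0.10 in KO and 0.28 to 0.29 in WT at 24 h, and -0.06 to -0.03 in KO and -0.02 on both WT arrays at 0 h. The part of this list's level in the 24 h differences of Epcam and Krt18 was not tested.

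Genes that work with Epcam and with keratin filaments gave mixed counts. For comparison, 22.5% of all genes were higher and 23.1% lower at 24 h in KO, and 18.9% and 19.0% in WT. Of 13 partners and proteases of EpCAM 2 were higher and 4 lower at 24 h in KO, and 3 were higher and 1 lower in WT. Cldn7, the claudin that binds EpCAM, was 0.93 higher in both genotypes, and St14, which encodes the protease matriptase, gained 0.57 in KO and 0.65 in WT. Tspan8 and Cd9, tetraspanins, were 0.89 and 0.31 lower in KO than in WT at 24 h (adjusted p = 1.96e-03 and 4.75e-02). Of 12 desmosome and linker genes 4 were higher and 3 lower at 24 h in KO, and 3 were higher and 2 lower in WT. Dsg2, the desmoglein of simple epithelia, gained 0.75 in KO and 0.50 in WT, and Dst, a linker to intermediate filaments, fell by 1.49 in KO and by 0.66 in WT. Pkp2, a plakophilin, was 0.62 lower in KO than in WT at 24 h (2.20e-03). Of 13 epithelial regulators 2 were higher and 5 lower in KO and 3 were higher and 4 lower in WT at 24 h, with Msx1 1.03 lower in KO and 1.46 lower in WT and Esrp2, a splicing regulator, 0.60 and 0.96 higher in KO and WT.

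**Figure D4:**
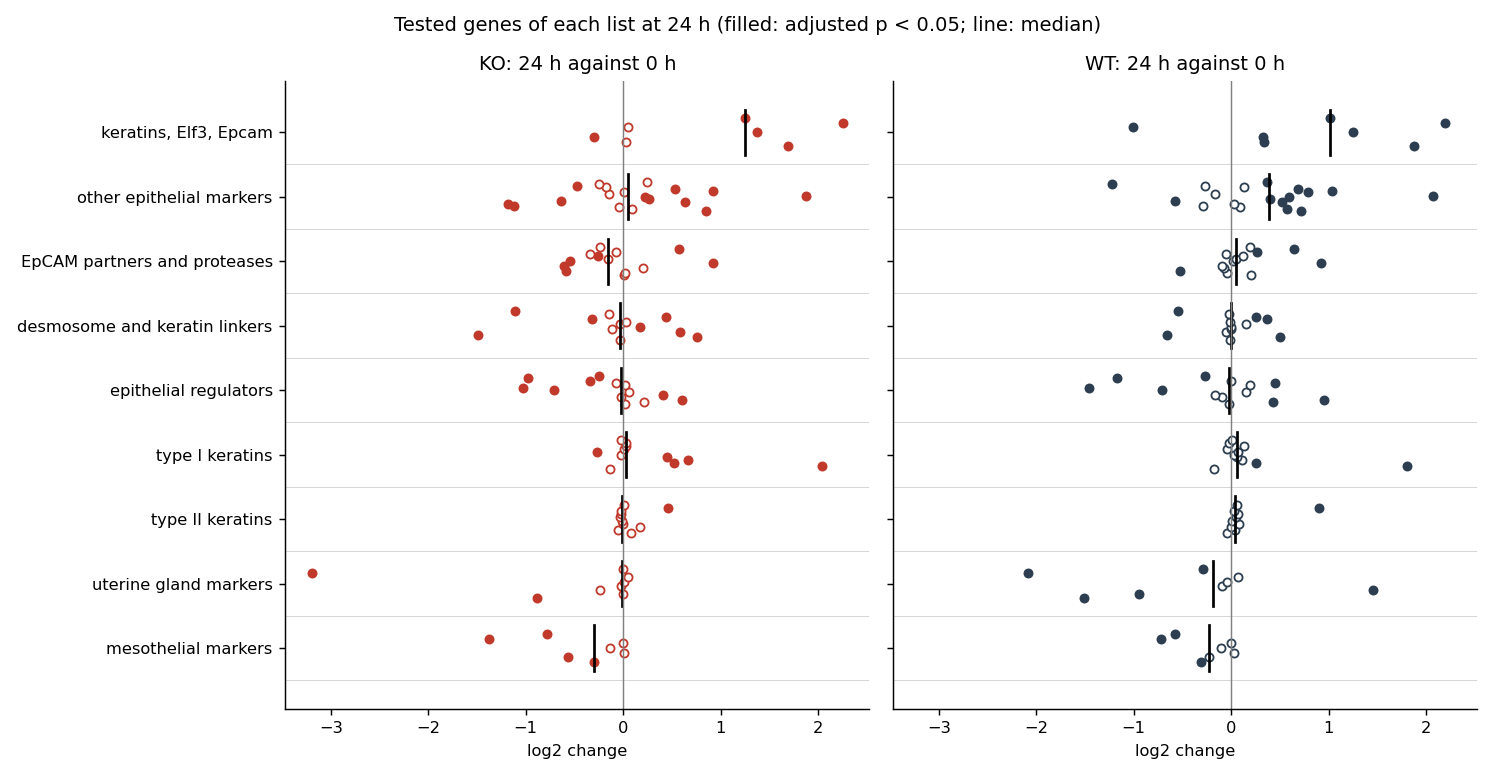
Log2 change at 24 h against 0 h (x axis) in KO (left) and WT (right) of every gene measured in 9 lists, with filled points for an adjusted p under 0.05 and a black line at the median of each list. The 7 genes have medians of 1.25 in KO and 1.01 in WT, and the medians of the other epithelial markers are 0.05 and 0.38 in KO and WT.

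Markers of other cell types were counted in the same way. Of all genes, 22.5% were higher and 23.1% lower at 24 h in KO and 18.9% and 19.0% in WT. The gland markers in KO and the macrophage markers in WT had a smaller share of calls than all genes. Of 7 mesothelial markers, from a lining that also makes simple keratins, 4 were lower and 0 higher at 24 h in KO and 3 were lower and 0 higher in WT, where Upk1b fell by 1.38 in KO and fell by 0.72 in WT. Of 6 adipocyte markers 6 were lower at 24 h in KO and 5 in WT, and their mean level was 1.65 to 1.72 in KO and 0.73 to 1.22 in WT at 0 h, against -0.71 to -0.46 in KO and -0.79 to -0.54 in WT at 24 h. Of 10 stromal fibroblast markers 6 were lower at 3 h in KO and 10 in WT, against 21.4% and 24.5% of all genes. At 6 h 6 of them were lower in KO and 8 in WT, against 23.0% and 22.1% of all genes. By 24 h 4 of these markers were higher and 2 lower in KO, and 2 were higher and 3 lower in WT. Of 9 macrophage markers 8 were lower at 24 h in KO, where the mean level was -0.50 to -0.36, against 0.22 to 1.04 at 0 h. Limma called 0 of 9 macrophage markers in WT at 24 h, with 0 at an unadjusted p under 0.05. Of 8 gland markers 2 were lower at 24 h in KO, and 1 was higher and 4 lower in WT, where Sult1d1 fell by 3.20 in KO and fell by 2.09 in WT. Cxcl15, a gland chemokine, had a KO minus WT difference of -1.74 at 0 h (1.90e-03), -1.55 at 3 h (2.80e-03), -1.08 at 6 h (6.46e-02) and -0.79 at 24 h (7.00e-02). The mean level of the gland list, in which Cxcl15 is 1 of 8 genes, was lower in KO than in WT at every time. It was -0.43 on both KO arrays and -0.17 to -0.10 in WT at 24 h. The median KO minus WT difference of the 8 genes was small, at -0.09, -0.07, -0.06 and -0.12 at 0, 3, 6 and 24 h. How far Cxcl15 set the mean level was not tested. At 24 h 1 of 8 gland markers was called lower in KO than in WT and 0 higher, against 4.27% and 4.08% of all genes. The part of these cell types in the changes of the 7 genes was not tested.

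Single 0 h arrays moved the sizes but not the 24 h calls of Krt7, Krt8, Krt19, Krt23 and Elf3 within either genotype. Without WT 0 h replicate 1, Krt8 at 24 h in WT was 1.17, Krt19 1.29 and Krt23 -0.75, and without WT 0 h replicate 2 they were 0.85, 1.21 and -1.26. Leaving out either KO 0 h array gave 2.16 and 2.34 for Krt7, 1.22 and 1.29 for Krt8 and 1.56 and 1.82 for Elf3 at 24 h in KO.

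**Figure D5:**
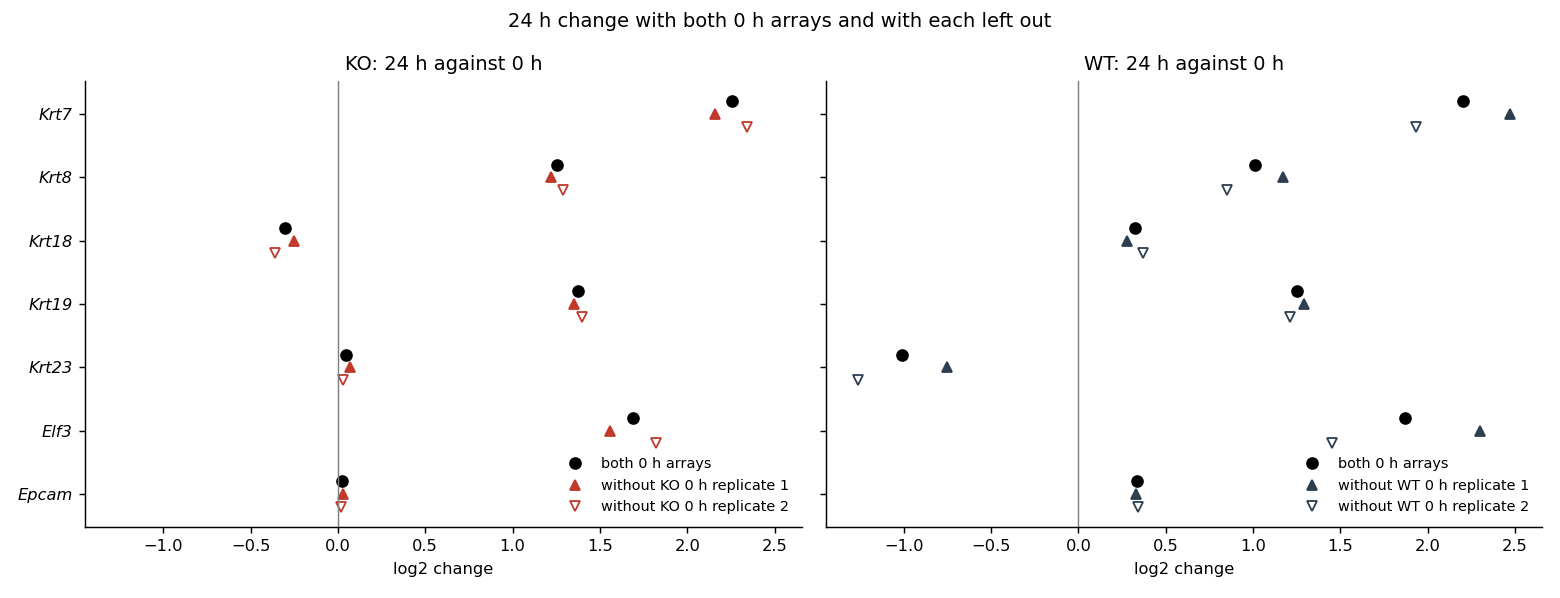
Log2 change at 24 h against 0 h (x axis) in KO (left) and WT (right) with both 0 h arrays (black circles), without replicate 1 (filled triangles) and without replicate 2 (open triangles). Krt7, Krt23 and Elf3 shift most in WT, where Elf3 is at 2.30 without replicate 1 and at 1.45 without replicate 2, and no gene called with both arrays changes sign.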

How the data were processed

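Signal was measured on 17 Illumina arrays, 8 of KO and 9 of WT uteri. The values are the log2 signals the authors deposited for 45281 probes. Per the submitters' processing notes BeadStudio was used; its version, the background correction, the offset and the normalization method are not given by the sources used here. All arrays share the same quantiles, from 7.39 to 15.94 with a median of 8.20, so the values had been quantile normalized, which sets each change relative to the other genes. The floor of about 7.4 compresses changes of dim genes. Depth has no meaning for arrays, and the small number of arrays limits precision.

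Every value column was matched to its sample by title, with 0 columns left unmatched. The platform annotation lists 34903 probes, of which 34885 have 1 gene symbol and 18 several, and 10378 probes are unnamed here. Probes above the array median on at least 2 arrays were kept, and for each gene the probe with the highest mean, which left 14737 genes. limma 3.58.1 in R 4.3.3 fitted 8 group means (9 residual and 4.56 prior degrees of freedom). Tests are two-sided, with the Benjamini-Hochberg adjustment over all genes and 0.05 as the threshold. The KO change minus the WT change is the interaction term, and its joint test is a moderated F test. The fit was tested on simulated data. Figures and promoter searches used Python 3.11.15 with pandas 2.3.3 and matplotlib 3.10.9, and promoters and loci are those of RefSeq on GRCm38.p6.

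Members and gene lists were chosen with earlier results of these data known, so a list's direction is no independent evidence. Named genes are the 7 members, the 3 genes nearest to each in course, up to 4 genes of a list with the largest called change in the comparison described, and genes needed to say what another cell type did. The listed alternatives change the filter, the probe, the scaling, the floor, the prior, the weights, the arrays in the fit, the block or single arrays.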

Additional observations from a re-analysis of the deposited data

Results flagged for a closer look

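For 3 of the 7 genes the KO change and the WT change since 0 h differed at 24 h by a test of the difference itself, where 4.12% of all genes were more positive and 3.15% more negative in KO. The KO change minus the WT change was -0.63 for Krt18, 1.06 for Krt23 and -0.31 for Epcam on the log2 scale. Taken over 3, 6 and 24 h together, the 2 genotypes differed in their changes for Krt18 (adjusted p = 2.71e-02) and Krt23 (adjusted p = 2.78e-03), with limma and adjustment over all genes. The joint call of Krt18 rested on single arrays, as given above. For Krt23 KO minus WT was -1.12 at 0 h and -0.06 at 24 h, so its 24 h term is nearly the 0 h difference with its sign turned. The count of 3 at 24 h was 0 without WT 24 h replicate 1 and 1 without KO 24 h replicate 2.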

How the results depend on the processing

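Over 30 alternatives, 17 of which leave out 1 array, 3028 of 3150 values of single genes kept their direction and side of the threshold. Of the rest, 51 lost a call, 32 gained one, 39 uncalled values moved and 0 called values turned round. Leaving out an array of a group that is not compared alters only the shared spread and cannot move the log2 change. Direction was therefore fixed in advance for those values, which count among the 3028 unless a call changed. At 0 h KO and WT differed for 2 genes, against 0 when only the compared arrays were fitted and 1 with array weights, with cyclic loess or with the lowest value subtracted before the log. At 24 h they differed for 1 gene, against 3 with only the compared arrays and 3 with array weights. Smaller moves of 1 gene were 5 in place of 6 for WT at 3 h (array weights), 2 in place of 3 for WT at 6 h, 2 in place of 3 for the 24 h change and 4 in place of 5 for KO at 24 h against 6 h (only the compared arrays, the last also with median centring), 6 in place of 5 for KO at 3 h (median centring, lowest value subtracted) and at 6 h (mean of probes, intensity trend, lowest value subtracted), and 3 in place of 2 jointly (no filter, mean of probes, intensity trend). Leaving out 1 array gave 1 to 3 genes for KO against WT at 0 h, 0 to 2 at 24 h, 1 to 3 for WT at 6 h against 0 h, 3 to 5 for KO at 24 h against 6 h, and, for the KO change minus the WT change, 0 to 2 at 3 h, 0 to 4 at 6 h, 0 to 4 at 24 h and 1 to 6 jointly. The other ranges were 5 to 6 (WT 3 h), 6 to 7 (WT 24 h), 4 to 6 (KO 3 h), 4 to 5 (KO 6 h), 4 to 5 (KO 24 h), 7 to 7 (WT 24 h against 6 h), 1 to 1 (KO against WT at 3 h) and 0 to 0 (at 6 h). Over all genes, KO against WT gave 653 calls at 0 h, 624 at 3 h, 93 at 6 h and 1231 at 24 h, against 8, 351, 0 and 3047 with only the compared arrays and 367, 246, 159 and 3242 with array weights. The 161 calls in the 3 h change became 16 and 46 under those settings and 80 with the lowest value subtracted, the 59 in the 6 h change became 1 with only the compared arrays and 37 with the mean of probes, and the 1006 joint calls became 585 with the lowest value subtracted. The cause was not tested.

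Arrays with the same replicate number did not all deviate together, with correlations of -0.19 to 0.31 over 56 pairs. Those with the same title letter did not either, with -0.28 to 0.31 over 50 pairs. With so few arrays in a group, their deviations from the group mean are tied to each other. The check therefore cannot exclude that arrays of some groups were paired. With the replicate block 5 genes in place of 6 were called for WT at 3 h (Krt18 at -0.23, adjusted p = 7.61e-02), and 274 genes in all for KO against WT at 3 h. With the letter as block 6 in place of 5 were called for KO at 3 h (Krt23, 2.43e-02) and 4 in place of 5 for KO at 24 h against 6 h (Epcam no longer). Dim signal limits Epcam most, since 8 of its 17 values lie at or below the array median.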

Other observations

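Other marker lists were counted at 24 h against 0 h, where 22.5% of all genes were higher and 23.1% lower in KO, and 18.9% and 19.0% in WT. Of 10 endothelial markers 1 was higher and 7 were lower in KO, and 0 were higher and 7 lower in WT. Of 11 smooth muscle markers 0 were higher and 2 lower in KO, and 3 were higher and 1 lower in WT. Of 9 intermediate filament genes other than keratins 3 were higher and 1 lower in KO, and 4 were higher and 1 lower in WT. The share of smooth muscle markers called was below that of all genes in KO, and about that of all genes in WT.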
